A study of Homo sapiens and Mus musculus with 19 samples.

Results

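The 6 libraries compared here were prepared from chromatin-associated RNA (caRNA) of K562 cells: 3 labelled TET2KO shMBD6 were set against 3 labelled TET2WT shControl, out of 19 libraries in the series and 12 from K562. K562 is a human leukaemia line, and the labels give lymphoblast cells of bone marrow. Members were chosen by the sample labels alone. By its labels the TET2KO shMBD6 group had the TET2 gene knocked out and MBD6 knocked down with a short hairpin RNA, and the TET2WT shControl group had unedited TET2 and a control hairpin. The methods describe lentiviral hairpins with puromycin selection for K562, but another list of these samples names siRNA in place of the hairpins, so the kind of knockdown reagent rests on the labels. The TET2KO cells came from an existing line for which the sources used here do not say whether it is 1 clone. The groups thus differ in genotype, knockdown reagent and possibly clonal history, which cannot be told apart in these 6 libraries. The 3 libraries labelled TET2KO shControl, which carry the knockout with the control hairpin, are therefore set beside them. The sources do not say that the replicates came from separate cultures, so p-values measure the spread between libraries, which may be technical.

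TET2 is a dioxygenase that oxidises 5-methylcytosine in DNA and RNA, and its gene is often mutated in myeloid malignancies. MBD6 carries a methyl-binding domain and associates with the PR-DUB complex, in which BAP1 removes ubiquitin from histone H2A, opposing the Polycomb complex PRC1. RNA kept on chromatin is rich in nascent, unspliced transcripts, so caRNA counts over a gene lie closer to its transcription than messenger RNA counts do. K562 cells carry the BCR-ABL1 fusion and express part of the red-cell programme, including haem enzymes and the factors GATA1 and KLF1.

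The gene totals were 70394621 to 102070223 counts in TET2WT shControl and 65967748 to 78688044 in TET2KO shMBD6. Fewer genes were detected in TET2KO shMBD6, 24480 to 26963 against 28970 to 31932, also at like depth: 26963 genes at 71078794 counts against 28970 genes at 70394621. Levels below are CPM, gene counts scaled to a common library total with TMM factors, as mean ± SD with n = 3, and fold changes are log2 values of TET2KO shMBD6 against TET2WT shControl with their SE unless stated. The K562 markers GATA1, TAL1, LMO2 and TFRC were detected in every library, whereas HBG2 and HBE1 were listed at 0 in all 6 libraries. In the annotation, HBG2 and HBE1 overlap other genes on their strand. Among markers of other cell types, CD3E, MS4A1, ALB, COL1A1 and KRT5 reached at most 0.777 CPM in any library. EPCAM and PECAM1 read 9.57 and 20.3 CPM in TET2KO shMBD6, against 4.97 and 18.6 CPM in TET2WT shControl.

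The knockdown target was examined first. MBD6 (ENSG00000166987.14, hg38 chromosome 12, 57520710 to 57530148) measured 43.3, 42.7 and 38.6 CPM in the TET2WT shControl libraries and 30.6, 38.4 and 34.2 CPM in the libraries labelled TET2KO shMBD6. The groups did not overlap, and the log2 fold change was -0.27 ± 0.076 (edgeR quasi-likelihood test, adjusted p = 0.00465). Against the TET2KO shControl libraries, at 30.3 ± 0.750 CPM, the log2 difference was 0.19 ± 0.077 (edgeR, adjusted p = 0.0574), so within the knockout MBD6 was not measured lower under the shMBD6 label. Group names here are therefore labels and not a measured knockdown. Counts of RNA kept on chromatin measure neither mature messenger RNA nor protein, so these values do not show that the knockdown failed. TET2 itself read 118, 122 and 124 CPM in TET2WT shControl and 91.9, 101 and 91.6 CPM in TET2KO shMBD6, a log2 fold change of -0.36 ± 0.040 (edgeR, adjusted p = 7.01e-09), beside 129 ± 2.23 CPM in TET2KO shControl. A disrupted gene can still be transcribed, so this value does not check the knockout.

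With 26023 genes in the test, 4888 lay above TET2WT shControl (18.8%) and 5237 below it (20.1%) in TET2KO shMBD6 at an adjusted p under 0.05, with a median log2 fold change of -0.05. TMM scaling sets the typical gene near 0, so these values cannot show a change in total caRNA. A change of at least 2-fold was reached by 1465 of the higher and 2913 of the lower genes. The balance depended on the level of the gene. Among 6413 genes at up to 0.25 CPM, 121 were called higher and 1245 lower, whereas among 3393 genes from 4 to 16 CPM 1033 were called higher and 458 lower. Of 3913 genes above 64 CPM, 1415 rose and 1123 fell. As a measure of background, the levels of 400 olfactory receptor genes were averaged per kb of gene span. They gave 0.0463 ± 0.00128 CPM in TET2KO shMBD6 and 0.0464 ± 0.00169 in TET2WT shControl. Of these receptors 61 passed the count filter and 7 stood at least 10 times above this average, so it is not a floor of silent genes. For this measure alone CPM was taken over all read records, including reads without a feature, ambiguous reads and reads not uniquely aligned, with no TMM factor, so its values lie below the gene CPM used elsewhere. Among the 8763 genes at least 10 times above that level per kb on that same scale, 2474 rose and 1706 fell.

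The genes farthest from the wild-type control were nearly silent in 1 genotype. DACH1, a transcriptional regulator of the dachshund family, measured 0.789, 1.01 and 1.44 CPM in TET2WT shControl and 212, 198 and 209 CPM in TET2KO shMBD6. All 3 libraries of the second group lay above every library of the first, and the log2 fold change was 7.54 ± 0.105 (edgeR, adjusted p = 1.18e-19). TGFBR2, the type II receptor for TGF-beta, read 0.443, 0.892 and 1.52 CPM in TET2WT shControl and 29.6, 34.5 and 34 CPM in TET2KO shMBD6. Here too the groups did not overlap, with a log2 fold change of 5.05 ± 0.255 (edgeR, adjusted p = 4.89e-10). TBX15, a T-box transcription factor, rose from 8.25 ± 1.02 to 222 ± 2.74 CPM, and the ciliary hedgehog-pathway gene EVC from 7.21 ± 0.780 to 198 ± 6.73 CPM. The remaining 6 of the 10 protein-coding genes with the largest rise were USP26, a deubiquitinase gene, AVPR1A, a vasopressin receptor, SLC18A2, a vesicular monoamine transporter, PDGFD, a platelet-derived growth factor, ACP3, an acid phosphatase, and FAM110B, with log2 fold changes from 4.73 for FAM110B to 6.04 for USP26. FAM110B lies on chromosome 8, which is taken up further on.

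Losses reached a like size. PTPRC, which encodes the pan-leukocyte phosphatase CD45, read 91.7, 96.5 and 95.8 CPM in TET2WT shControl and 0.0761, 0.257 and 0.0649 CPM in TET2KO shMBD6, from 26301 counts over 3 libraries to 28. No library of the second group came near the first, and the log2 fold change was -9.47 ± 0.142 (edgeR, adjusted p = 2.22e-32). CTLA4, an inhibitory receptor of T cells, fell from 11.6 ± 0.551 to 0.228 ± 0.158 CPM. In the same range were ZNF804A, a zinc finger gene (70.5 to 0.371 CPM), the kinase gene PAK5 (27 to 0.174 CPM) and the glycosyltransferase gene B3GALNT1 (7.27 to 0.0773 CPM). PARP15, CSMD3, RTL9 and ZNF732 were also among the 10 largest falls, with log2 fold changes from -7.59 for PARP15 to -4.46 for ZNF732. Spread over gene length, coverage was low in most of these genes. As means of the 6 libraries, the falling genes named here ran from 0.355 (CSMD3) to 6.26 (PTPRC) times the olfactory receptor level per kb. Of the 10 rising genes only EVC and TBX15, at 14.8 and 16 times, passed 10 times, with DACH1 at 3.56.

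**Figure D1:**
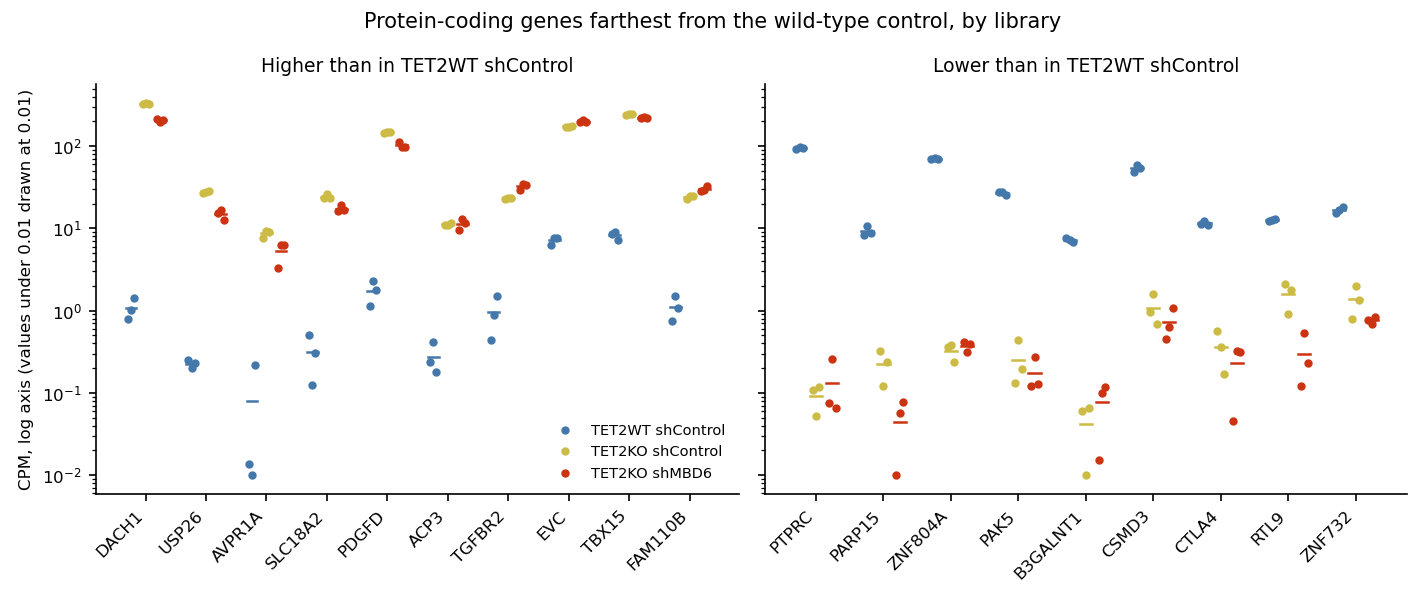
CPM on a log axis for the 10 protein-coding genes with the largest rise (left) and for 9 of the 10 with the largest fall (right) in TET2KO shMBD6 against TET2WT shControl. Points are single libraries, short lines are means of 3 libraries, and TET2KO shControl is drawn beside the compared groups. For every gene drawn the TET2KO shControl points lie on the same side of TET2WT shControl as the TET2KO shMBD6 points, as for DACH1 at 329, 206 and 1.08 CPM in TET2KO shControl, TET2KO shMBD6 and TET2WT shControl.

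The plot of the farthest genes shows where the knockout with the control hairpin stood. It read 329 ± 4.93 CPM for DACH1, 23.4 ± 0.433 for TGFBR2 and 0.0927 ± 0.0355 for PTPRC. Within the knockout, DACH1 was lower in the libraries labelled shMBD6, with a log2 difference of -0.68 ± 0.066 (edgeR, adjusted p = 2.36e-07). For PTPRC the log2 difference between the knockout groups was 0.44 ± 0.431 (edgeR, adjusted p = 0.467). The starts of the genes with the strongest rise and the strongest fall are shown from RefSeq on GRCh38.p14, from 250 bases before to 50 after the start, because methylated CpG sites are what TET enzymes oxidise. Capitals mark CG. The DACH1 window lies at chr13:71867155-71867454 on the minus strand and holds 12 CG, and the PTPRC window at chr1:198638790-198639089 on the plus strand holds 1.
DACH1: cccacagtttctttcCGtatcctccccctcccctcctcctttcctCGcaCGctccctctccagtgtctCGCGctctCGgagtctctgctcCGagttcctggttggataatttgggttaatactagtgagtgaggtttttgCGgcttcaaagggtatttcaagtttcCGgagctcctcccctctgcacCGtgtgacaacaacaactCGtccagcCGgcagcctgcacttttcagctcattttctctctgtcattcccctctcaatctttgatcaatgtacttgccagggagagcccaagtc
PTPRC: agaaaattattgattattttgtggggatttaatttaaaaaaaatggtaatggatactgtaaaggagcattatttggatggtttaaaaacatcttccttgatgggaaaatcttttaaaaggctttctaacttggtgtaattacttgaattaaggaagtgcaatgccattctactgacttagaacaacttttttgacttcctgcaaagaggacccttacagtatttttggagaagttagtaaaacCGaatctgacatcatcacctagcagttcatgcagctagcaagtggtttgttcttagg
Of the 10 rising genes 7 had a promoter in the table used, with 2 to 40 CG and a median of 13. Of the 10 falling genes 7 had one as well, with 1 to 36 CG and a median of 11. The median over all 27305 promoters of that length was 14.

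Long noncoding RNAs showed a like pattern. XACT, a long noncoding RNA of the X chromosome known from pluripotent cells, read 7.34, 7.77 and 7.53 CPM in TET2WT shControl and 671, 694 and 708 CPM in TET2KO shMBD6. The groups were far apart, with a log2 fold change of 6.52 ± 0.038 (edgeR, adjusted p = 7.85e-44). LINC02241 rose from 5.57 ± 1.27 to 447 ± 4.77 CPM and LINC01087 from 1.18 ± 0.330 to 105 ± 5.56 CPM. LINC00508, LINC03056 and the unnamed gene ENSG00000273388 rose to 39.4, 66.4 and 29.2 CPM, each from under 1 CPM. ENSG00000248762, on chromosome 8, rested on 4 counts in the 3 TET2WT shControl libraries together and 4028 in TET2KO shMBD6. In the other direction LINC01818 fell from 34.1 ± 2.02 to 0.146 ± 0.0281 CPM and LINC02444 from 31.2 ± 1.18 to 0.746 ± 0.111 CPM. LINC00334 (11.5 to 0.519 CPM), ENSG00000249837 (9.40 to 0.200 CPM) and ENSG00000248138 (14.7 to 0.982 CPM) fell too.

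Ranked by CPM gained, the leading genes were the mucin gene MUC19 (27.7 to 538 CPM), the long noncoding RNA ENSG00000230258 (1032 to 1529 CPM), LINC02241, the pseudogene ENSG00000277654 (315 to 732 CPM) and AHNAK, a giant scaffold protein gene (34.3 to 404 CPM). Ranked by CPM lost they were the long noncoding RNA MGC4859 (1826 to 959.7 CPM), ADGRB3, an adhesion receptor (579 to 154 CPM), the polarity gene PARD3B (675 to 354 CPM), PLCL1, a phospholipase C-like gene (1022 to 729 CPM), and MEF2C, a transcription factor of muscle and blood cells (378 to 118 CPM). For PARD3B and PLCL1 the TET2KO shControl libraries read 684 and 1586 CPM, no lower than TET2WT shControl. AHNAK stood at 638 ± 16.7 CPM in TET2KO shControl. ENSG00000277654 lies on chromosome 15, which is taken up further on.

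Red-cell genes were mostly lower than in the wild-type control. Of 18 haem synthesis and iron uptake genes tested, 11 fell and 1 rose. Of 22 red-cell membrane and blood group genes, 15 fell and 2 rose (0 without TET2KO shMBD6 replicate 1 or without TET2WT shControl replicate 1 or 2), and of 23 erythroid and progenitor transcription factors 17 fell and 2 rose. Over all genes of this comparison, 20.1% fell and 18.8% rose. The list medians were -0.19, -0.30 and -0.27 on the log2 scale against -0.05 for all genes. Fewer cells of a type and less RNA per cell cannot be told apart in such bulk libraries.

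Haem enzymes showed small but tight differences. UROS, uroporphyrinogen synthase of the haem pathway, read 113, 109.8 and 104 CPM in TET2WT shControl and 60.8, 66.5 and 66.8 CPM in TET2KO shMBD6. No library of either group reached the other, with a log2 fold change of -0.75 ± 0.051 (edgeR, adjusted p = 4.19e-14). UROD, the decarboxylase that follows it, fell from 112 ± 5.58 to 77.7 ± 3.21 CPM. TFRC, the transferrin receptor that brings in iron, fell from 578 ± 5.95 to 470.4 ± 4.20 CPM. ALAS2, the erythroid form of the first enzyme, fell by 0.21 on the log2 scale. ALAS1, the form present in most tissues, was the member that rose (19.2 to 24 CPM), with overlapping groups. Without TET2KO shMBD6 replicate 2 ALAS1 was not called (edgeR, adjusted p = 0.0575).

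Membrane genes followed. RHAG, the Rh-associated glycoprotein, read 166, 166 and 169 CPM in TET2WT shControl and 118, 127 and 124 CPM in TET2KO shMBD6. Every library of the second group lay below the first, with a log2 fold change of -0.44 ± 0.038 (edgeR, adjusted p = 1.01e-11). ANK1, erythroid ankyrin, fell from 806 ± 16.6 to 566 ± 6 CPM. Larger falls were seen in DMTN, dematin, from 37.3 ± 2.74 to 11.1 ± 0.973 CPM, and in SLC4A1, the band 3 anion exchanger, from 5.75 ± 0.476 to 1.35 ± 0.721 CPM. Of the 2 members that rose, EPB41, protein 4.1 (1054 to 1095 CPM), lost its call without any of 5 of the 6 libraries, with adjusted p from 0.0549 to 0.165, and CA2 stayed at 0.345 CPM. Globin transcripts were low in this fraction. HBG1, a fetal gamma-globin, read 6.81, 6.82 and 6.27 CPM in TET2WT shControl and 4.28, 2.12 and 1.91 CPM in TET2KO shMBD6. The groups did not overlap, with a log2 fold change of -1.26 ± 0.249 (edgeR, adjusted p = 0.000103), but HBG1 has a near-identical copy in HBG2 and overlaps another annotated gene, so its level is uncertain. Of 9 globin-list genes 4 fell and 0 rose, and only HBG1 of the 4 exceeded 1 CPM in either group.

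Among the factors, LMO2, a bridging protein of the GATA1 and TAL1 complex, read 249, 244 and 248 CPM in TET2WT shControl and 104, 100.2 and 97 CPM in TET2KO shMBD6. The groups were well separated, with a log2 fold change of -1.30 ± 0.039 (edgeR, adjusted p = 7.7e-24). MEIS1, a homeodomain factor of stem cells and megakaryocytes, fell from 86.9 ± 0.446 to 37 ± 3.98 CPM. ZFPM1, the GATA1 cofactor FOG1, fell from 240.5 ± 21.2 to 118 ± 3.49 CPM, and KLF1, the erythroid Krüppel-like factor, from 18.7 ± 0.597 to 12.1 ± 0.769 CPM. GATA1 and TAL1 fell less, by 0.22 and by 0.27 on the log2 scale. SPI1, the myeloid factor PU.1, went the other way (23.7 to 35.8 CPM), as did LYL1, a TAL1 relative (32 to 40.8 CPM). GATA2 measured 78.9 and 76.8 CPM and did not pass (edgeR, adjusted p = 0.582).

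**Figure D2:**
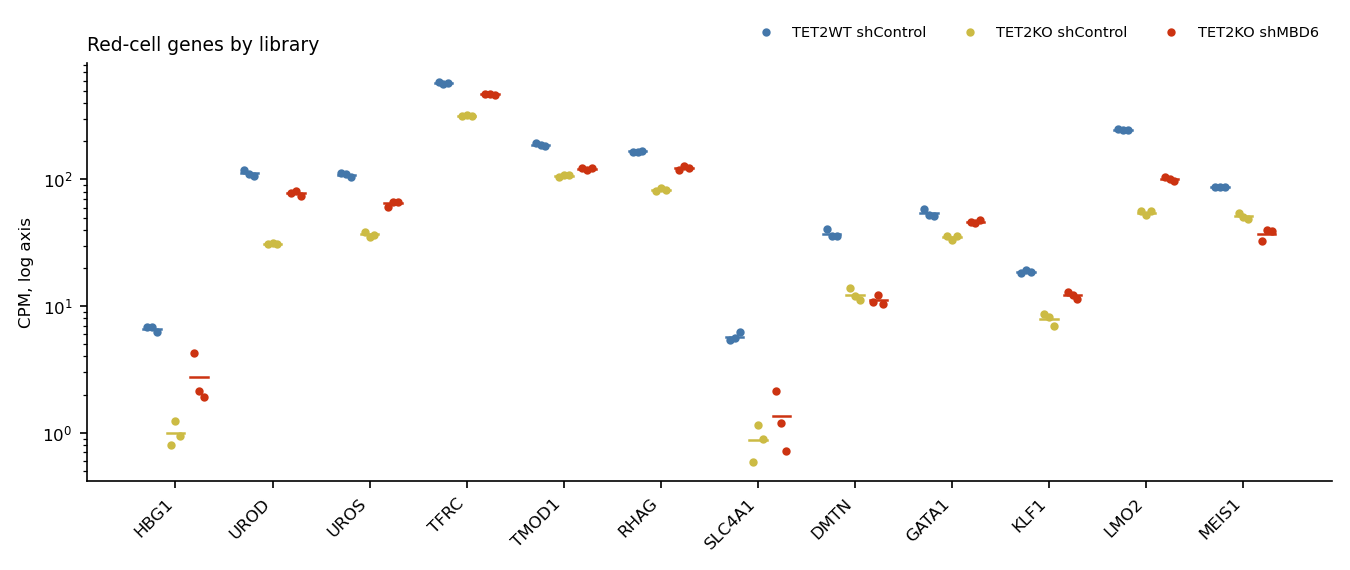
CPM on a log axis for 12 red-cell genes in each library, with means of 3 libraries as short lines. TET2KO shMBD6 lies below TET2WT shControl for all 12, and TET2KO shControl lies lower still for RHAG, UROD, UROS and LMO2, as in UROD at 112, 77.7 and 30.9 CPM in TET2WT shControl, TET2KO shMBD6 and TET2KO shControl.

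As the plot of red-cell genes shows, the knockout with the control hairpin was farther from wild type for many of these genes. RHAG stood at 82.8 ± 2.13 CPM there, UROD at 30.9 ± 0.346, TFRC at 318 ± 2.94 and LMO2 at 54.7 ± 2.38 CPM. In the direct comparison with TET2KO shControl, in which 15.7% of the tested genes passed upward and 20.6% downward, TET2KO shMBD6 was higher in 13 of 22 membrane genes and lower in 1. It was higher in 10 of 18 haem and iron genes and lower in 3. RHAG differed by 0.57 ± 0.038 on the log2 scale in that comparison (edgeR, adjusted p = 3.88e-14), and UROD by 1.33 ± 0.054 (edgeR, adjusted p = 1.01e-19). The transcription factors were mixed, with 6 of 23 higher and 8 lower. DMTN, at 12.3 CPM in TET2KO shControl, did not pass there (edgeR, adjusted p = 0.206). Comparing TET2KO shControl with TET2WT shControl, for which 23.5% of genes were called higher and 22.3% lower, gave list medians of -0.93 for the membrane genes, -0.56 for haem and iron and -0.57 for the factors. These 3 comparisons share libraries, and their values are given side by side only.

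GATA1 binds GATA letters and KLF1 binds CACC-type sites, so the starts of the falling red-cell genes were searched for AGATAA or TGATAA and for CCNCNCCC on both strands. Of 47 members of the 4 red-cell lists that fell, 34 had a RefSeq promoter in the table. AGATAA or TGATAA stood in 11 of them (32.4%) and in 16.6% of all 27305 promoters of the same length, and CCNCNCCC in 24 (70.6%) and in 55.1%. These are counts of letters and not of bound sites. Red-cell list members that did not fall were not counted apart, so these shares cannot be tied to the fall. The promoters shown were taken from the 11 that hold the GATA letters. A factor, a membrane glycoprotein and a spectrin that fell are shown with the GATA letters in capitals: KLF1 at chr19:12887152-12887451, RHAG at chr6:49636790-49637089 and SPTB, erythroid beta-spectrin, at chr14:64879858-64880157, all on the minus strand of GRCh38.p14.
KLF1: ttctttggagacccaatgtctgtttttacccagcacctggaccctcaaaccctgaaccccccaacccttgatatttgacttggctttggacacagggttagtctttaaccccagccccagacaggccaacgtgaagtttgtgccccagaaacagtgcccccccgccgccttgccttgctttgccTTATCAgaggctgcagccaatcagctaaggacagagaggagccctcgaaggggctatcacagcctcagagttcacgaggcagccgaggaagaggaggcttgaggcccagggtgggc
RHAG: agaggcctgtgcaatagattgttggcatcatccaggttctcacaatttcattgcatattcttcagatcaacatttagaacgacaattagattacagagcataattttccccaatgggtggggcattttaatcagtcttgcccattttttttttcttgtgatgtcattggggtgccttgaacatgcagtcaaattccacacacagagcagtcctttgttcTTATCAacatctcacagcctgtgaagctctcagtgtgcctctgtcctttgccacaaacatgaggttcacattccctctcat
SPTB: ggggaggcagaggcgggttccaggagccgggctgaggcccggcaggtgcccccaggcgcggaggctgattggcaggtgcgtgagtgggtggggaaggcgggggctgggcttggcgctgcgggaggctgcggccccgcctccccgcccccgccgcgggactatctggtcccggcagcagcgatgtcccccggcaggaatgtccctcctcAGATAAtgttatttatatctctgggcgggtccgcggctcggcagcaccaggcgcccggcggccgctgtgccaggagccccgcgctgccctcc
On the log2 scale SPTB fell by 0.18, whereas RHAG fell by 0.44 and KLF1 fell by 0.62.

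Other blood lineages were mixed. Of 17 megakaryocyte and platelet genes tested 5 rose (29.4%) and 7 fell (41.2%), beside 18.8% and 20.1% of all genes, with the rises dropping to 3 without TET2KO shMBD6 replicate 3 or without TET2WT shControl replicate 1. TUBB1, the platelet beta-tubulin, fell from 13.1 ± 1.26 to 4.11 ± 1.52 CPM, and ITGA2B, the platelet integrin subunit CD41, from 40.7 ± 3.12 to 25.8 ± 3.08 CPM. SPARC, a matrix protein also stored in platelets, rose from 2.14 ± 0.620 to 8.60 ± 1.18 CPM. Among 16 stem and progenitor surface genes 4 rose and 4 fell, the falls dropping to 1 without TET2WT shControl replicate 2 and to 2 without TET2KO shMBD6 replicate 3. KIT, the stem cell factor receptor, rose from 0.827 ± 0.410 to 19.3 ± 1.13 CPM, and CD33, a myeloid lectin receptor, from 16.8 ± 0.503 to 33.7 ± 1.46 CPM.

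The granulocyte and monocyte list had 3 of 18 higher, among them CSF3R, the G-CSF receptor (2.71 to 7.22 CPM), and 4 lower, among them the Fc receptor gene FCGR2A (18.1 to 11.5 CPM). These shares, 16.7% and 22.2%, were near the 18.8% and 20.1% over all genes. In the lymphoid list 2 of 25 rose, the lymphocyte factors IKZF3 (2.28 to 20.9 CPM) and LEF1 (73.3 to 132 CPM), and 6 fell, PTPRC among them. Most members of these lists sat near background: only 2 of the stem cell, 1 of the granulocyte and 1 of the lymphoid genes were at least 10 times above the olfactory receptor level per kb. Of 16 fibroblast, endothelial and epithelial markers 3 rose, EPCAM among them, and 2 fell, KRT18, an epithelial keratin, among them (14.5 to 10.9 CPM). KRT18 was not called without TET2WT shControl replicate 2 (edgeR, adjusted p = 0.0588).

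Long genes for cell adhesion made up another large block. Of 50 axon guidance and synaptic adhesion genes tested 36 fell (72%) and 9 rose (18%), with a median log2 fold change of -1.54. Of 42 adhesion and extracellular matrix genes 20 fell (47.6%) and 8 rose (19%), with a median of -0.56. Over all genes 20.1% fell and 18.8% rose, so the rises in both lists were near that share. Off chromosomes 7, 8 and 15, which are taken up further on, 31 of 40 axon guidance genes fell and 5 rose. Of 38 adhesion genes off these chromosomes 19 fell and 7 rose. TENM1, a teneurin, read 597, 608 and 610.4 CPM in TET2WT shControl and 284, 279 and 295 CPM in TET2KO shMBD6. The groups were well apart, with a log2 fold change of -1.08 ± 0.026 (edgeR, adjusted p = 1.04e-26). ROBO1, a receptor for the SLIT guidance cues, fell from 112 ± 3.14 to 1.09 ± 0.213 CPM, CADM2, a cell adhesion molecule, from 239 ± 14.2 to 126 ± 2.23 CPM, and PCDH9, a protocadherin, from 1437 ± 34.6 to 983 ± 31 CPM. NRXN3, a neurexin, rose from 12.6 ± 0.738 to 79.1 ± 2.22 CPM, and SEMA3D, a semaphorin, from 0.639 ± 0.230 to 6.94 ± 0.960 CPM.

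Most of the falls in these lists were at very low coverage. PTPRD, OPCML and LRP1B, which encode synaptic or cell-surface proteins, read between 5.20 and 7.35 CPM in TET2WT shControl and between 1.18 and 1.66 CPM in TET2KO shMBD6. Spread over their length, 0 of 50 axon guidance genes and 6 of 42 adhesion genes reached 10 times the olfactory receptor level per kb, and of those 6 adhesion genes 2 fell and 1 rose. Gene span showed a like dependence. Of 320 protein-coding genes longer than 500 kb, 194 fell (60.6%) and 74 rose, with a median of -0.48, whereas of 4249 genes of 5 to 20 kb 596 fell and 703 rose. For the 320 longest genes, TET2KO shControl against TET2WT shControl gave 137 higher and 121 lower, with a median of 0.027. Against TET2KO shControl, TET2KO shMBD6 was lower in 225 of them and higher in 12, with a median of -0.562. Among genes at least 10 times above the olfactory receptor level, 40 were longer than 500 kb, of which 20 fell and 14 rose with a median of -0.05. The number of detected genes was lower in TET2KO shMBD6 as well, and its part in these falls was not tested.

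**Figure D3:**
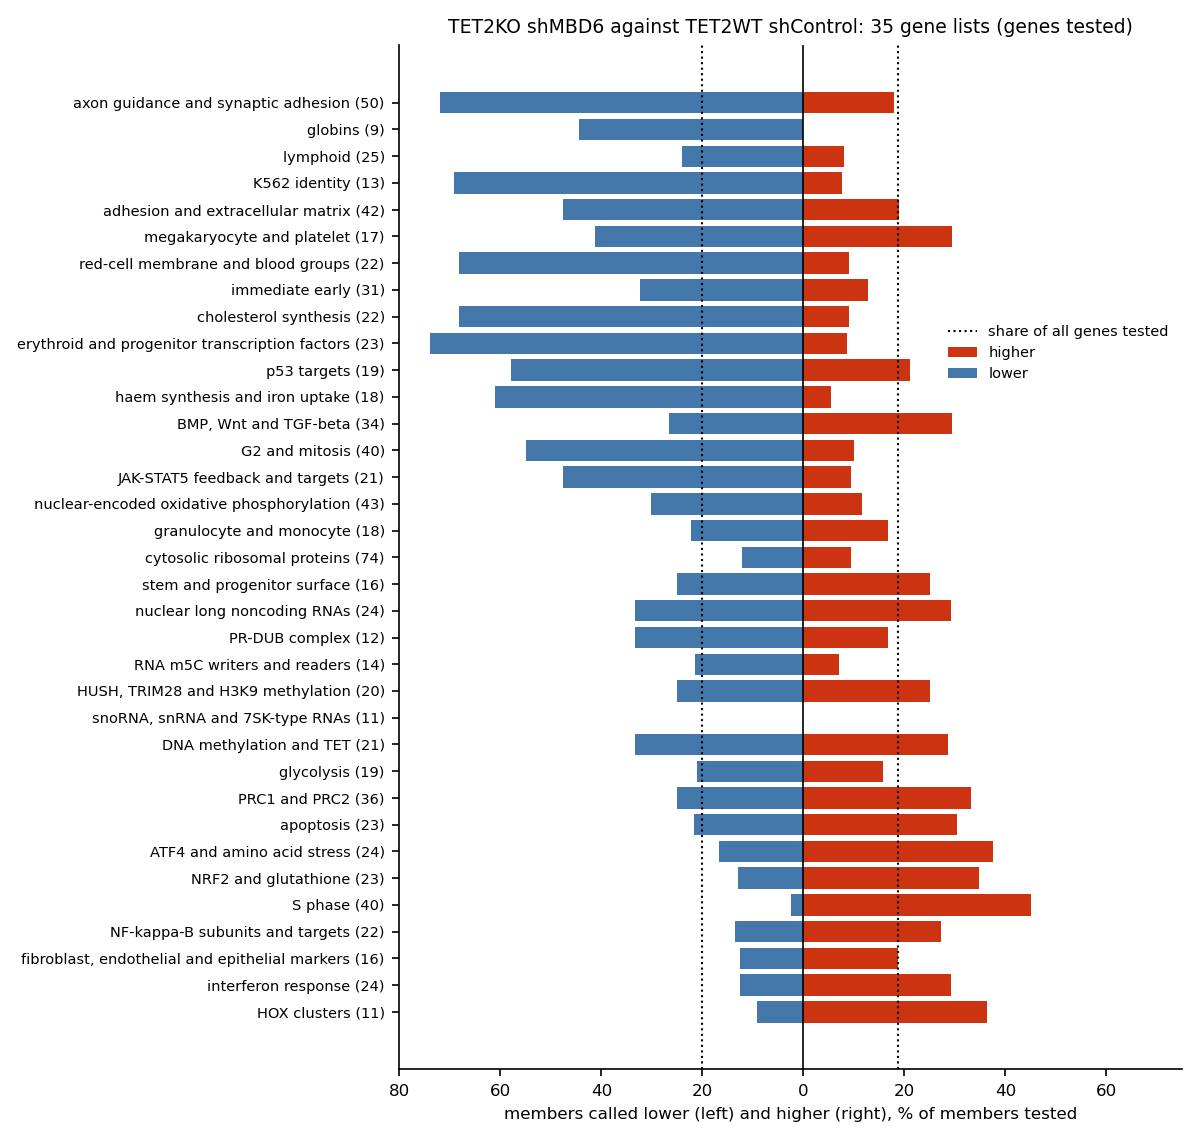
Share of the tested members of 35 gene lists called lower (left, blue) and higher (right, red) in TET2KO shMBD6 against TET2WT shControl, in percent, ordered by the list median with the number tested in brackets. Dotted lines mark the shares over all genes tested, 20.1% lower and 18.8% higher. Red-cell, axon guidance and cholesterol lists extend far to the left and the S phase list to the right.

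The plot of gene lists also shows the cell cycle genes divided by phase. Of 40 S phase genes 18 rose (45%) and 1 fell (2.5%), with a median log2 fold change of 0.11. Of 40 genes of G2 and mitosis 22 fell (55%) and 4 rose (10%), with a median of -0.17. Over all genes 18.8% rose and 20.1% fell. Among the 8763 genes at least 10 times above the olfactory receptor level 2474 rose and 1706 fell, and 34 of the S phase genes were among them. Scaling by total gene counts left 11 S phase genes called higher and 4 lower. RFC2, a subunit of the clamp loader of replication, read 39.2, 42.6 and 41.4 CPM in TET2WT shControl and 63.3, 63.2 and 59.9 CPM in TET2KO shMBD6. All 3 libraries of the second group were higher, with a log2 fold change of 0.60 ± 0.058 (edgeR, adjusted p = 2.98e-10). MCM7 and MCM2, subunits of the replicative helicase, changed by 0.43 ± 0.041 and 0.23 ± 0.057 on the log2 scale, and CCNE2, cyclin E2, rose from 10.7 ± 0.888 to 15.7 ± 1.36 CPM. CCNE1, cyclin E1, was the member that fell (16.4 to 12.8 CPM), and it was not called without TET2WT shControl replicate 1 (edgeR, adjusted p = 0.069). RFC2 and MCM7 lie on chromosome 7 and CCNE2 on chromosome 8, where many genes were higher. Off chromosomes 7, 8 and 15, 14 of 35 S phase genes rose and 1 fell.

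For mitosis, CCNB1, cyclin B1, fell from 51.7 ± 1.26 to 41.1 ± 3.13 CPM, PLK1, a mitotic kinase, from 55.4 ± 2.39 to 44.7 ± 1.90 CPM, and PTTG1, securin, from 17.9 ± 2.82 to 11.7 ± 1.63 CPM. Of the 4 that rose, BUB1B, CCNB2 and KIF23 lie on chromosome 15, and off chromosomes 7, 8 and 15 the count was 21 lower and 1 higher of 34. Replication-dependent histone genes, which are transcribed in S phase, were lower: of 52 tested 29 fell (55.8%) and 1 rose (1.92%), with a median of -0.76. This family was matched by symbol in addition to the lists. H2AC6 read 145, 138 and 134 CPM in TET2WT shControl and 68, 69.1 and 70.1 CPM in TET2KO shMBD6. The groups did not overlap, with a log2 fold change of -1.01 ± 0.038 (edgeR, adjusted p = 3.22e-21). H2BC4 fell from 47 ± 1.55 to 18 ± 1.37 CPM and H2BC11 from 103 ± 4.51 to 56.8 ± 1.87 CPM. In TET2KO shControl H2AC6 stood at 136 ± 2.08 CPM and H2BC4 at 22.9 ± 0.698 CPM. Of the 52 histone genes 36 were lower and 2 higher in TET2KO shControl than in TET2WT shControl, with a median of -0.88, and 10 were higher and 9 lower in TET2KO shMBD6 than in TET2KO shControl. In the comparison of TET2KO shControl with TET2WT shControl 4 of 40 S phase genes were higher and 23 lower, beside 23.5% and 22.3% of all genes. Against TET2KO shControl the TET2KO shMBD6 libraries were higher in 30 and lower in 2, beside 15.7% and 20.6% of all genes.

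**Figure D4:**
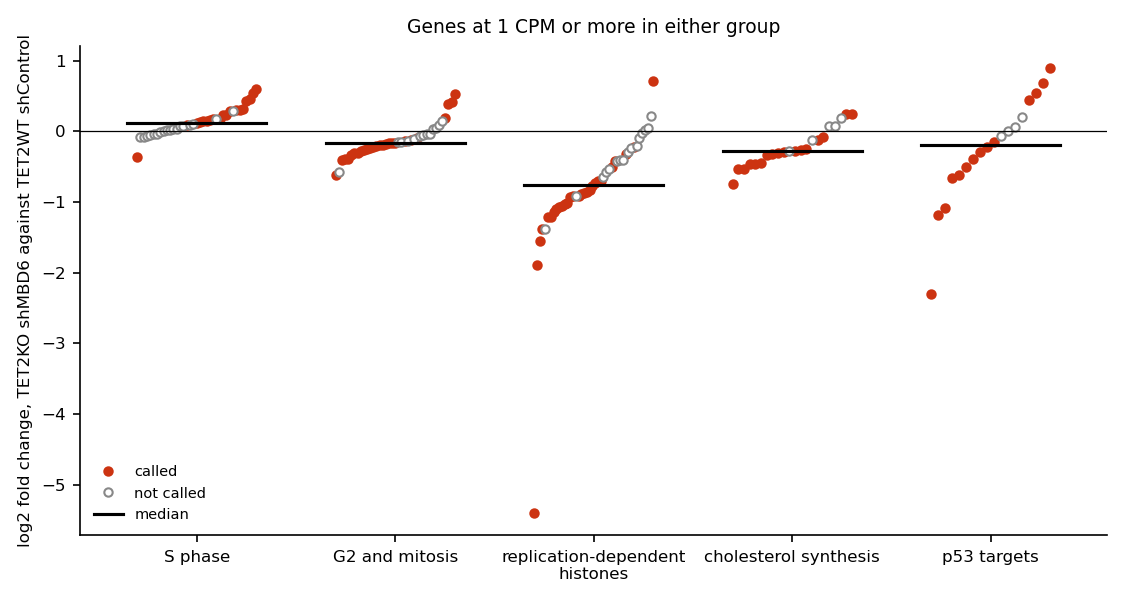
Log2 fold change of TET2KO shMBD6 against TET2WT shControl for genes at 1 CPM or more in either group, 1 point per gene, for S phase, G2 and mitosis, replication-dependent histone, cholesterol synthesis and p53 target genes. Filled points passed an adjusted p under 0.05, open points did not, and bars are medians of the genes drawn. Histone genes lie mostly below 0, S phase genes cluster just above it, and CDKN1A lies lowest among the p53 targets at -2.30.

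Cholesterol synthesis genes, on the same plot, were mostly lower: 15 of 22 fell (68.2%) and 2 rose (9.09%). Over all genes 20.1% fell and 18.8% rose. MSMO1, a sterol demethylation enzyme, read 54.9, 57.8 and 53.5 CPM in TET2WT shControl and 31.9, 33.1 and 34.1 CPM in TET2KO shMBD6. All 3 libraries of the second group were lower, with a log2 fold change of -0.75 ± 0.057 (edgeR, adjusted p = 9.29e-13). LSS, lanosterol synthase, fell from 136 ± 3.16 to 98.4 ± 1.33 CPM, and INSIG1, a sterol-dependent regulator of the pathway, from 70.6 ± 1.47 to 51.7 ± 1.08 CPM. HSD17B7, a sterol reductase, was among the genes that rose (15.8 to 18.7 CPM), but lost its call without any of 4 of the 6 libraries, with edgeR adjusted p from 0.0785 to 0.18. Of 19 p53 targets 11 fell (57.9%) and 4 rose (21.1%). K562 lacks functional p53, so these counts do not measure p53 activity. CDKN1A, the cell cycle inhibitor p21, read 9.88, 7.05 and 7.01 CPM in TET2WT shControl and 0.777, 2.24 and 1.80 CPM in TET2KO shMBD6. The groups were apart, with a log2 fold change of -2.30 ± 0.227 (edgeR, adjusted p = 9.91e-10). Of the 4 that rose, TP53INP1 (7.99 to 14.9 CPM), RRM2B (18.1 to 29 CPM) and TNFRSF10B lie on chromosome 8.

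With TMM scaling the stress lists had more rises than falls, which for the ATF4 list turned under scaling by total gene counts. The shares were 34.8% and 13% for NRF2 and 37.5% and 16.7% for ATF4, beside 18.8% and 20.1% of all genes. Of 23 NRF2 and glutathione genes 8 rose and 3 fell, the rises dropping to 5 without TET2WT shControl replicate 3. GCLC, which makes the first bond of glutathione, rose from 38.3 ± 4.78 to 67.3 ± 0.944 CPM, and SLC7A11, the cystine transporter, fell from 572 ± 14.4 to 491 ± 11.6 CPM. Of 24 ATF4 and amino acid stress genes 9 rose, the secreted hormone gene STC2 among them (58.3 to 84.2 CPM), and 4 fell, PHGDH, which starts serine synthesis, among them (302 to 234 CPM). Under total-count scaling the ATF4 list had 5 higher and 6 lower. Of 23 apoptosis genes 7 rose (30.4%) and 5 fell (21.7%), or 6 and 7 under that scaling. Of the 14 apoptosis genes at least 10 times above the olfactory receptor level 2 rose and 5 fell. BCL2, a survival gene, rose from 11.7 ± 1.28 to 29.4 ± 0.831 CPM, while the death effectors BBC3 and BAX fell by 0.62 and by 0.50 on the log2 scale.

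In the JAK-STAT5 list 10 of 21 genes fell (47.6%) and 2 rose (9.52%), beside 20.1% and 18.8% of all genes. PIM1, a survival kinase induced by STAT5, fell from 255 ± 5.71 to 179 ± 2.60 CPM, and EPOR, the erythropoietin receptor, from 22.8 ± 1.76 to 14.1 ± 1.36 CPM. STAT5A rose from 126 ± 0.988 to 172 ± 3.14 CPM. ID1, an inhibitor of helix-loop-helix factors that is also a BMP target, fell from 12.9 ± 2.98 to 3.41 ± 1.88 CPM. SOCS3, a feedback inhibitor, fell by 0.52 and NFKBIA, the inhibitor of NF-kappa-B, by 0.51 on the log2 scale, the latter losing its call without TET2KO shMBD6 replicate 1 or TET2WT shControl replicate 1 (edgeR, adjusted p = 0.0671 and 0.244). Among 22 NF-kappa-B subunits and targets 6 rose (27.3%) and 3 fell (13.6%). The adhesion molecule gene ICAM1 was among the rises (15.1 to 25.7 CPM). Under scaling by total gene counts 4 of the list rose and 5 fell.

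Of 31 immediate early genes 10 fell (32.3%), or 16 under total-count scaling, and 4 rose (12.9%), beside 20.1% and 18.8% of all genes. The factor gene EGR1 was among the falls (17.7 to 10.1 CPM). EREG, a growth factor gene, rose from 5.73 ± 1.11 to 15.4 ± 0.502 CPM and read 5.86 CPM in TET2KO shControl, near the TET2WT shControl level. The BMP, Wnt and TGF-beta list had 10 of 34 higher (29.4%) and 9 lower (26.5%), with a median of -0.18 against the direction of these counts. Beside TGFBR2, the pathway inhibitor SMAD7 rose from 15.7 ± 2.02 to 36.3 ± 2.50 CPM. Of 24 interferon response genes 7 rose and 3 fell (6 with DESeq2, and 5 without TET2KO shMBD6 replicate 2 or 3 or without TET2WT shControl replicate 1), with MX2, an antiviral GTPase, up from 1.29 ± 0.233 to 3.37 ± 0.117 CPM. The 7 rises and 3 falls were 29.2% and 12.5% of the list. The list's median was 0.27, and -0.03 off chromosomes 7, 8 and 15. Only 2 of the interferon genes stood 10 times above the olfactory receptor level per kb.

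In the PR-DUB list of 12 genes 2 rose (16.7%) and 4 fell (33.3%), or 7 fell under total-count scaling. Over all genes 18.8% rose and 20.1% fell. OGT, which adds O-GlcNAc and binds this complex, rose from 1136 ± 5.85 to 1389 ± 22.1 CPM, and MBD5, the relative of MBD6, from 194 ± 8.33 to 233 ± 5.96 CPM. HCFC1, a cofactor bound by BAP1 and OGT, fell from 100.2 ± 5.26 to 75.4 ± 3.88 CPM. BAP1 measured 28.3 and 30.9 CPM (edgeR, adjusted p = 0.226), and ASXL1, its partner, fell by 0.10 on the log2 scale, uncalled without TET2KO shMBD6 replicate 1 (edgeR, adjusted p = 0.0651). Of 21 DNA methylation and TET genes 6 rose (28.6%) and 7 fell (33.3%). TET1 rose from 189.9 ± 2.46 to 279 ± 6.34 CPM and TET3 fell from 218 ± 2.10 to 182 ± 8.79 CPM. IDH2, which makes the co-substrate of TET enzymes, rose from 20.5 ± 0.724 to 33.2 ± 1.37 CPM and lies on chromosome 15. CXXC5, a CpG-binding protein, fell by 0.20 on the log2 scale.

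Polycomb genes were mixed, with 12 of 36 higher (33.3%) and 9 lower (25%), or 11 and 12 under total-count scaling. MGA, a partner of a variant PRC1, rose from 189 ± 1.81 to 312 ± 4.75 CPM and also lies on chromosome 15. Of 14 RNA m5C genes 1 rose (7.14%), the methyltransferase gene NSUN2 (118 to 128 CPM), and 3 fell (21.4%), TET2 and FMR1 among them. NSUN2 was not called without TET2KO shMBD6 replicate 3 or without TET2WT shControl replicate 1 (edgeR, adjusted p = 0.111 and 0.117). Under total-count scaling 0 rose and 6 fell. TRDMT1, at 34.2 and 36.6 CPM, and PSPC1, at 202 and 196 CPM, did not pass (edgeR, adjusted p = 0.219 and 0.323). Of 20 HUSH, TRIM28 and H3K9 methylation genes 5 rose and 5 fell (3 and 8 under that scaling, with 3 rises without TET2WT shControl replicate 1 or 3), with the germline silencing gene MORC1 down (23.8 to 9.06 CPM) and the heterochromatin protein gene CBX5 up (88.8 to 128 CPM). MORC1 stood at 24 CPM in TET2KO shControl. The 5 rises and 5 falls were each 25% of that list, beside 18.8% and 20.1% over all genes. Only 11 HOX genes passed the count filter, of which 4 rose (36.4%), HOXC4 among them (2.59 to 6.40 CPM), and 1 fell (9.09%).

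By class of transcript, 3592 of 16253 protein-coding genes rose (22.1%) and 3672 fell (22.6%), with a median of -0.03. Of 7289 long noncoding RNAs 933 rose (12.8%) and 1335 fell (18.3%), with a median of -0.23. Over all genes 18.8% rose and 20.1% fell. Among the 852 long noncoding RNAs at least 10 times above the olfactory receptor level 28.8% rose and 14% fell, with a median of 0.12. Of 7239 protein-coding genes at that level 28.5% rose and 21.1% fell, and over all 8763 genes there 2474 rose and 1706 fell. More rises than falls at that level were thus not particular to long noncoding RNAs. Of 1909 pseudogenes 303 rose (15.9%) and 193 fell (10.1%), both below the shares over all genes. Protein-coding genes took 87.9% ± 0.0355 of gene counts in TET2WT shControl and 86.9% ± 0.0281 in TET2KO shMBD6, and long noncoding RNAs 10.2% ± 0.0590 and 10.99% ± 0.0417. The groups did not overlap in these shares, for which the two-sided exact permutation test cannot go below p = 0.1, and both gave that value (adjusted over 5 classes, 0.167). The mitochondrial genome took 0.0229% and 0.0254% and the 10 highest genes 4.20% in both groups (exact permutation p = 0.2 and p = 1). In TET2KO shControl long noncoding RNAs took 12.9%.

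Of 24 nuclear long noncoding RNAs 7 rose (29.2%) and 8 fell (33.3%), or 6 and 12 under total-count scaling. NEAT1, the scaffold of paraspeckles, fell from 1801 ± 50.3 to 1329 ± 19 CPM. MALAT1, an RNA of nuclear speckles, measured 16500 and 16650 CPM and did not pass. PVT1, next to MYC on chromosome 8, rose from 634 ± 13.6 to 1062 ± 7.38 CPM, and SNHG14, on chromosome 15, from 3.69 ± 0.191 to 27.7 ± 2.54 CPM. Among 11 snoRNA, snRNA and 7SK-type RNAs tested 0 were called by edgeR, 0 had an unadjusted p under 0.05 and DESeq2 called 0. Ribosomal protein genes had 7 of 74 higher (9.46%) and 9 lower (12.2%), both below the shares over all genes, 18.8% and 20.1%. When scaled by total gene counts 21 were lower, while the falls over all 26023 genes went from 5237 to 6171. Nuclear-encoded oxidative phosphorylation genes had 5 of 43 higher (11.6%) and 13 lower (30.2%), or 20 lower under that scaling. In glycolysis 3 of 19 rose, the pyruvate kinase gene PKM of chromosome 15 among them (42.9 to 72 CPM), and 4 fell, SLC2A1, a glucose transporter, among them (159.7 to 103 CPM). These shares, 15.8% and 21.1%, were near those over all genes, 18.8% and 20.1%. In the K562 identity list 9 of 13 fell (69.2%) and 1 rose (7.69%).

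Chromosome 15 stood apart as a whole. Among genes at 1 CPM or more, 402 of 507 on chromosome 15 rose and 13 fell, with a median log2 fold change of 0.61, whereas the medians of the chromosomes other than 7, 8 and 15 ran from -0.04 to 0.08. Chromosome 8 followed, with 307 of 521 higher and a median of 0.35, and chromosome 7, with 346 of 748 higher and a median of 0.23. On chromosome 15 all 9 windows of 10 Mb had medians more than 0.3 above the median over all 297 windows. On chromosome 8 these were 7 of 15 windows, all from 70 Mb on, and on chromosome 7 8 of 16, all from 60 Mb on. In the comparison with TET2KO shControl the medians of chromosomes 15, 8 and 7 were 0.00, -0.05 and 0.01, and TET2KO shControl against TET2WT shControl gave 0.59, 0.35 and 0.19. Without these 3 chromosomes 3753 genes were called higher and 4838 lower of 22904. DNA copy number was not measured in these libraries.

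**Figure D5:**
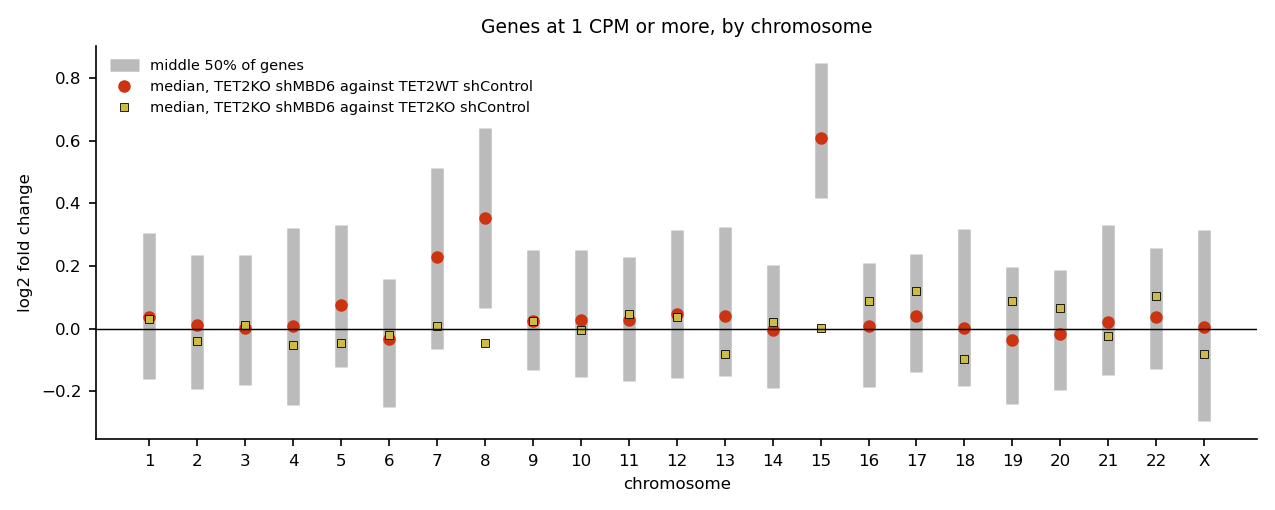
Median log2 fold change per chromosome for genes at 1 CPM or more, with circles for TET2KO shMBD6 against TET2WT shControl, grey bars for the middle 50% of genes in that comparison, and squares for TET2KO shMBD6 against TET2KO shControl. Chromosomes 15, 8 and 7 stand at 0.61, 0.35 and 0.23, and their squares lie near 0.

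On the plot of chromosome medians the squares show that the rise on chromosomes 15, 8 and 7 was present in both knockout groups. In GENCODE release 44 an overlapping gene on the same strand, for which the counting may have set reads aside, was annotated for ANK1, BBC3, BCL2, CADM2, CBX5, EPB41, EPCAM, EPOR, FCGR2A, GCLC, H2BC4, HBG1, HOXC4, IKZF3, LRP1B, MALAT1, MBD5, MCM7, MGA, MORC1, NEAT1, NRXN3, OPCML, PCDH9, PECAM1, PSPC1, PTPRD, PVT1, ROBO1, SLC2A1, SNHG14, SPTB, TENM1, TET1, TET3, TRDMT1, XACT and ZFPM1 among the genes named above.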

How the data were processed

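caRNA of 12 K562 libraries in 4 groups of 3 was used. The authors deposited raw counts per gene: per the labels and methods, reads were trimmed with Trimmomatic 0.39, aligned with HISAT2 2.2.1 to hg38 with GENCODE release 29 and counted with HTSeq 0.12.4. The methods also name featureCounts, and the strand option is not given in the sources used here. Summary lines were left out. Reads without a feature made up 13.1 to 15.15% of gene counts and summary lines together in the 6 libraries.

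Counts were tested with edgeR 4.0.16 (R 4.3.3; TMM, filterByExpr with a minimum count of 10, quasi-likelihood over 4 groups, Benjamini-Hochberg over 26023 genes), called at an adjusted p under 0.05. DESeq2 1.42.0 was an alternative. The paper describes ERCC spike-in RNA that entered its size factors, but the counts used here hold 0 ERCC lines. No scaling used here can thus show a change in total caRNA. The model was tested on simulated data. Shares were compared by two-sided exact permutation.

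Symbols came from GENCODE release 44 (99.12% of identifiers matched). Named genes were the 10 protein-coding and 5 long noncoding genes each way with the largest fold change at 5 CPM or more, apart in all libraries and without overlap, the 5 each way with the largest CPM difference, up to 2 each way per list at 1 CPM or more, and the TET, MBD, PR-DUB and RNA methylation genes of the study. Other list members and the histone genes were named for their role after their values were seen. Members and lists were chosen with earlier results of these data known. The lists are described by counts and medians only. Some genes that these rules name are not reported here.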

Additional observations from a re-analysis of the deposited data

Results flagged for a closer look

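A signal in libraries outside the comparison drew attention. In the 3 libraries labelled TET2WT shMBD6, the 10 protein-coding genes with the largest rise in TET2KO shMBD6 read a median of 2.47 times their TET2WT shControl level, from 1.74 to 6.89 times, above 1 for 10 of 10. The 10 genes with the largest fall read a median of 0.856 times, from 0.244 to 2.04, above 1 for 4 of 10. For DACH1 the TET2WT shMBD6 libraries read 7.44 ± 0.956 CPM against 1.08 ± 0.333 CPM in TET2WT shControl. These ratios share the TET2WT shControl libraries with the comparison itself and were not tested.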

How the results depend on the processing

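Counts of 4888 higher and 5237 lower genes stayed within 1.5 times under other scalings, filters, DESeq2 (4919 and 5842), total-count scaling (4223 and 6171) and the removal of chromosomes 7, 8 and 15, a setting chosen after seeing the data. Leaving out 1 library gave 4387 to 4805 higher and 4504 to 4982 lower. They moved to 1465 and 2913 with a 2-fold change in addition, and to 2474 and 1706 among genes at least 10 times above the olfactory receptor level, both by construction. Replicate numbers did not pair the libraries (correlations of deviations from -0.008 to 0.013), and a replicate block gave 4939 and 5197. PSPC1, uncalled at -0.04, read 0.004 without the low-count filter and passed at -0.09 with total-count scaling (edgeR, adjusted p = 0.0161). The cause was not tested. Of the log2 values of named genes recomputed, 2097 kept direction and call, 72 lost the call, mostly in EPB41, HSD17B7, CXCL3, SPRY2, MBD3 and BCR, 1 gained it and 1 reversed. The 28 recomputed shares moved by less than the spread between libraries, as did 381 list medians, and 74 moved by more. Genes under 0.25 CPM are limited by depth.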

Other observations

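Zinc finger genes are given by position. Of 239 ZNF genes of chromosome 19 tested 61 fell and 33 rose, with a median of -0.08, and of 290 tested on other chromosomes 51 fell and 78 rose. Without chromosomes 7, 8 and 15, the latter set held 229 genes, of which 44 fell and 47 rose with a median of 0.02. The difference between both sets was not tested. Among all genes tested, 20.1% fell and 18.8% rose. This family was matched by symbol and not drawn from the fixed lists.

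Outside chromosomes 7, 8 and 15, few windows of 10 Mb stood off. On chromosome 1 the windows from 220 to 240 Mb had 50 of 72 and 30 of 46 genes higher, with medians of 0.38 and 0.37. On chromosome X the windows from 130 and from 150 Mb had 30 of 46 and 33 of 63 genes lower, with medians of -0.37 and -0.36, against -0.07 and -0.26 for TET2KO shControl with TET2WT shControl. On chromosome 4 the window from 130 Mb had 13 of 25 genes higher and 8 lower, with a median of 0.81.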
